A study of Mus musculus with 42 samples.

Results

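The genes described here carry salt and water across the lining of the newborn lung. They are the epithelial sodium channel subunits Scnn1a, Scnn1b and Scnn1g, the sodium pump subunit Atp1b1, the ubiquitin ligase Nedd4l, the chloride channel Cftr and the water channels Aqp1, Aqp4 and Aqp5. They were chosen by name, 9 genes of the 18194 measured, and each is represented by its brightest probe set. RNA from homogenised lung of 42 newborn mice was measured on Affymetrix 3' expression arrays, with a separate mouse on each array and 3 mice in each of 14 groups. The genotypes were wild type, labelled Nrf+/+, and knockout, labelled Nrf-/-, of Nrf2 (gene Nfe2l2), a transcription factor that drives antioxidant genes. In room air the ages were P1, the day of birth, P2, P3 and P4. From P1 on, other pups of each genotype breathed at least 95% O2 (hyperoxia) for 1, 2 or 3 days, with a daily break, and were compared with air-kept pups of P2, P3 and P4. Pups of all exposures were kept with foster dams. The labels name no strain, litter or pup sex and do not say how the knockout allele was made, so genotype and any difference of background between the lines cannot be told apart.

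Before birth the lung is filled with liquid that its epithelium secretes, driven by chloride leaving the cells through channels such as CFTR. Around birth the epithelium turns to absorption: sodium enters through the epithelial sodium channel (ENaC) on the air side and is pumped out by the sodium pump on the other side, and water follows. Aquaporins let water cross membranes. In the lung, AQP5 is known from the air-facing membrane of alveolar type 1 cells, AQP1 from capillary endothelium and AQP4 from the airway epithelium, while NEDD4L tags ENaC for removal from the membrane.

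Among the 9 genes, 6 had a promoter in the RefSeq table used here (GRCm38.p6), which holds 250 bases before and 50 bases after each start. The bases before the annotated gene are shown for Scnn1b and Scnn1g, neighbours in the genome whose values moved together, and for Aqp5, the water channel with the largest fall after birth. All are on the plus strand and written 5′ to 3′.
Scnn1b, chr7:121864788-121865037: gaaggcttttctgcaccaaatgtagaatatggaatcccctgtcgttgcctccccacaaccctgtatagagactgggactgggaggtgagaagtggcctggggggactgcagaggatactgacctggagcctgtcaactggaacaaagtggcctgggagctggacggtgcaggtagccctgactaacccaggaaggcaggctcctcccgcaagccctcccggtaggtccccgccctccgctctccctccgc
Scnn1g, chr7:121734229-121734419: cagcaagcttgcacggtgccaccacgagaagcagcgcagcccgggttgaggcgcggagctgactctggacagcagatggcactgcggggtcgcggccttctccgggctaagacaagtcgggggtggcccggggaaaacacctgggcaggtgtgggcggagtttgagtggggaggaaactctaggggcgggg
Aqp5, chr15:99590778-99591027: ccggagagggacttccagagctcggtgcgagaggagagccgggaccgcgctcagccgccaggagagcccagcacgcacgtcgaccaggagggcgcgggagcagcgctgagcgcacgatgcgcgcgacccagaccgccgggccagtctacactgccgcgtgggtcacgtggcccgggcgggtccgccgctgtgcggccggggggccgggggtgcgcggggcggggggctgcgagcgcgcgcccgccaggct
The Aqp5 stretch was 78.4% G or C, that of Scnn1g 67% over its 191 bases, and that of Scnn1b 60.8%. Over all promoters in the table the quartiles for the 250 bases before the start were 45.2%, 52.4% and 61.2%. The core of the antioxidant response element, the site NRF2 binds, was searched as TGACNNNGC on both strands of the 300 bases. It matched in 1 of the 6 promoters, that of Scnn1b, as TGACCCAGC at chr7:121865062-121865070, which begins at base 25, with the start counted as base 1. The same letters match in 12.4% of all 32851 promoters. A match is a description of letters. The sequences above hold no capitals because the core lay in none of them.

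Values are on the log2 scale as deposited, so a difference of 1 is a doubling. Nfe2l2 itself, the deleted gene, lay between 10.32 and 11.56 in the 21 wild-type arrays and between 4.26 and 5.46 in the 21 knockout arrays, as labelled. The lung's own markers were high in every array: Sftpc, a surfactant protein of alveolar type 2 cells, was never under 14.52, and Ager, a marker of alveolar type 1 cells, never under 13.96. Each array's median lay between 6.31 and 6.4, and the arrays of a group correlated at 0.959 to 0.997 over all genes. Marker lists showed other tissue in 15 arrays, where a list's mean stood over 2 log2 units above its median over all arrays. Liver markers did so in 9 wild-type arrays and 1 knockout array, heart muscle markers in 3 wild-type arrays, and skeletal muscle and thymocyte markers in 2 knockout arrays each. Of these, the array of knockout P3 replicate 2 had the highest skeletal muscle score, 4.60 above the median. Knockout pups of P3 in air had the highest mean of the 14 groups for 3 of the genes described here, Scnn1a, Scnn1g and Aqp1, and means over ages or exposure times are given without P3 too.

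In wild-type lungs kept in air, 8 of the 9 genes were lower 1 day after birth (P2 against P1), with Aqp4 the exception. Across all genes 8.25% were called lower in that comparison. For these 8 genes no P2 array reached a P1 array, against 28.8% of all genes whose groups did not overlap in either direction. By P3, 7 were lower against P1 (9.42% of all genes), and by P4 8 were lower (11.3% of all genes). The median difference of the 9 genes at P4 was -0.92, that of all genes 0.0082. A gene is called where its adjusted p is under 0.05 (limma on all arrays, Benjamini-Hochberg over all 18194 genes), and differences are given ± SE.

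The fall after birth was not the same at each age in knockout lungs. At P2, 4 of the 9 genes were called lower than at P1 in knockout (6.47% of all genes). At P3 0 were called (12.8% of all genes), with 2 at an unadjusted p under 0.05 in the same limma fit. At P4 6 were called lower (13.5% of all genes), and the P4 arrays of all 9 lay outside the range of the P1 arrays (35.5% of all genes). The change from P1 to P3 was itself tested between the genotypes, and 7 of the 9 differed, all with the higher value in knockout (4.68% of all genes). The change from P1 to P2 differed for 1 gene, Atp1b1 (1.73% of all genes were called higher), with 4 of the 9 at an unadjusted p under 0.05. The change from P1 to P4 differed for 0 (0.0275% of all genes), with 1, Nedd4l, at an unadjusted p under 0.05.

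**Figure D1:**
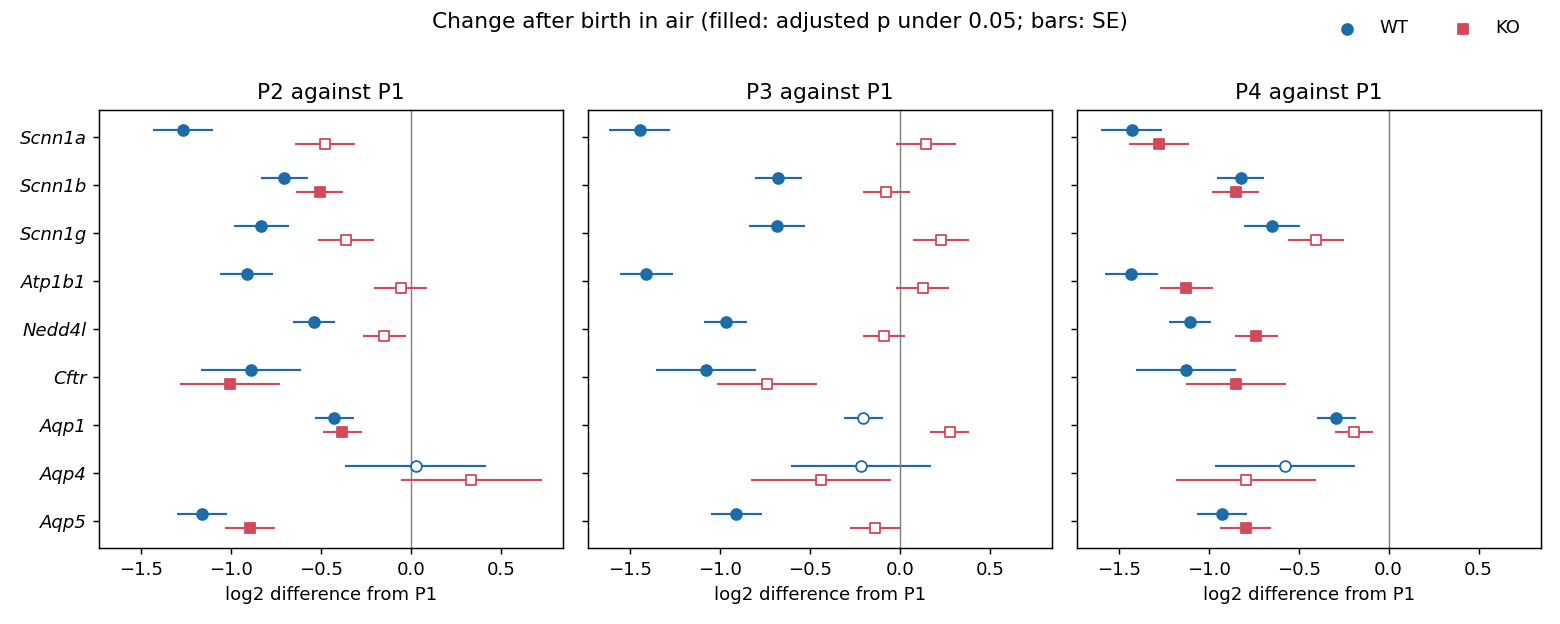
Difference from P1 in air at P2, P3 and P4 for each gene (x axis, log2, bars SE; filled symbols have an adjusted p under 0.05), in wild type (circles) and knockout (squares). In the P3 panel 7 wild-type genes lie to the left as filled circles while 0 knockout squares are filled; in the P4 panel both genotypes lie to the left.

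Scnn1a encodes the alpha subunit of ENaC, without which the channel conducts little. Its values in wild-type air were 10.95, 11.02 and 11.09 at P1, 9.59, 9.73 and 9.94 at P2, 9.75, 9.47 and 9.50 at P3 and 9.64, 9.58 and 9.55 at P4. The P1 pups stood above all later ones, with no overlap. Scnn1a fell by 1.27 ± 0.17 from P1 to P2, a 2.40-fold decrease (adjusted p = 4.53e-06). Its P4 mean was 2.69-fold under that of P1, a difference of -1.43 ± 0.17 (adjusted p = 1.81e-07). In knockout air the arrays read 11.16, 10.50 and 11.20 at P1, 10.16, 10.92 and 10.35 at P2, 10.79, 10.99 and 11.53 at P3 and 9.82, 9.47 and 9.76 at P4. The P3 arrays overlapped those of P1, and only the P4 arrays all lay below them. At P3 knockout exceeded wild type by 1.53 ± 0.17, 2.88-fold (adjusted p = 1.12e-07), every knockout array above every wild-type array. At P2 knockout was also higher, by 0.72 ± 0.17 (adjusted p = 0.00401), the only gene of the 9 called there, where 7.98% of all genes were called higher. Between genotypes at P2, 5 of the 9 had an unadjusted p under 0.05 in limma. The Scnn1a change from P1 to P3 differed between genotypes by 1.59 ± 0.24 (adjusted p = 3.32e-05).

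Scnn1b, the beta subunit, took the same course with smaller steps. In wild-type air it read 9.41, 9.54 and 9.59 at P1, 8.50, 8.81 and 9.13 at P2, 8.86, 8.90 and 8.77 at P3 and 8.75, 8.79 and 8.53 at P4. The P1 arrays lay above every later array, and the later ages overlapped each other. Scnn1b fell by 0.70 ± 0.13 to P2 (adjusted p = 0.000365) and by 0.82 ± 0.13 to P4 (adjusted p = 1.66e-05). The knockout arrays read 9.76, 9.67 and 9.66 at P1, 9.11, 9.45 and 9.02 at P2, 9.39, 9.67 and 9.82 at P3 and 8.96, 8.66 and 8.93 at P4. Those of P2 and P4 lay below P1, while P3 overlapped P1. In knockout Scnn1b fell by 0.50 ± 0.13 to P2 (adjusted p = 0.00955) and by 0.85 ± 0.13 to P4 (adjusted p = 1.28e-05). The fall to P2 in knockout was not called without either of 2 arrays, knockout P2 replicate 1 (-0.46, adjusted p = 0.0698) or replicate 3 (-0.42, adjusted p = 0.0591).

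Scnn1g encodes the gamma subunit. Wild-type air arrays read 11.30, 11.37 and 11.33 at P1, 10.06, 10.68 and 10.78 at P2, 10.67, 10.59 and 10.70 at P3 and 10.74, 10.73 and 10.60 at P4, again with P1 above all later pups. Scnn1g fell by 0.83 ± 0.15 to P2 (adjusted p = 0.000365) and by 0.65 ± 0.15 to P4 (adjusted p = 0.0021). In knockout air it read 11.44, 11.11 and 11.29 at P1, 10.76, 11.43 and 10.57 at P2, 11.33, 11.53 and 11.68 at P3 and 10.93, 10.73 and 10.98 at P4. Of the P2 arrays 2 lay below the P1 arrays and 1 within their range, and no knockout age was called against P1, P4 with a difference of -0.40 ± 0.15 (adjusted p = 0.0592). At P3 all knockout arrays were above all wild-type arrays for Scnn1g and for Scnn1b. The differences were 0.86 ± 0.15 for Scnn1g (adjusted p = 0.000135) and 0.78 ± 0.13 for Scnn1b (adjusted p = 5.23e-05). The genotypes' changes from P1 to P3 differed by 0.91 ± 0.22 for Scnn1g (adjusted p = 0.00503) and 0.60 ± 0.19 for Scnn1b (adjusted p = 0.0296). The latter lost its call without any 1 of these arrays: wild-type P1 replicate 2 or 3, wild-type P3 replicate 1 or 3, knockout P1 replicate 2 or 3, knockout P3 replicate 2 or 3 (0.50 to 0.61, adjusted p up to 0.0995).

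Atp1b1, the beta subunit that carries the sodium pump to the membrane, fell in wild type over the first days. Its values were 12.94, 12.95 and 12.92 at P1, 12.20, 11.73 and 12.16 at P2, 11.45, 11.64 and 11.50 at P3 and 11.34, 11.41 and 11.78 at P4. The P1 pups, with an SD of 0.013, lay above all others of either genotype. Atp1b1 fell by 0.91 ± 0.15 to P2 (adjusted p = 6.75e-05) and by 1.43 ± 0.15 to P4, 2.69-fold (adjusted p = 2.48e-08). Knockout arrays read 12.69, 12.10 and 12.61 at P1, 12.17, 12.60 and 12.46 at P2, 12.35, 12.71 and 12.72 at P3 and 11.42, 11.16 and 11.45 at P4. The first 3 ages overlapped and P4 lay below them, at a level where the arrays of the genotypes overlapped. At P1 knockout was lower than wild type by a difference of -0.47 ± 0.15 (adjusted p = 0.0476), the only call among the 9 at P1, where 2.51% of all genes were called lower. That difference was called in 7 of its 15 alternatives and lost its call without any 1 of these arrays: wild-type P1 replicate 1, 2 or 3, knockout P1 replicate 2 (-0.48 to -0.29, adjusted p up to 0.338). At P3 the order was turned: knockout was higher by 1.06 ± 0.15 (adjusted p = 3.79e-06). The genotypes' changes from P1 differed by 0.85 ± 0.21 at P2 (adjusted p = 0.0253) and by 1.53 ± 0.21 at P3 (adjusted p = 9.98e-06). The P2 difference lost its call without any 1 of these arrays: wild-type P1 replicate 2, wild-type P2 replicate 2, knockout P1 replicate 2 (0.67 to 0.85, adjusted p up to 0.0917). Of the 5 probe sets of Atp1b1, 4 behaved alike (r of 0.98 with the one used, over 42 arrays), while the dim remaining one, with a mean of 6.59, correlated at 0.19 and was not called from P1 to P4.

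Nedd4l is the ligase that takes ENaC out of the membrane, and it too was highest at birth in wild type. In wild-type air it read 10.36, 10.47 and 10.45 at P1, 9.92, 9.82 and 9.94 at P2, 9.37, 9.55 and 9.46 at P3 and 9.32, 9.29 and 9.36 at P4, with the arrays of P1, P2 and P3 apart without overlap. Nedd4l fell by 1.10 ± 0.12 from P1 to P4, 2.15-fold (adjusted p = 5.11e-08). In knockout it read 9.96, 10.01 and 10.21 at P1, 9.69, 10.16 and 9.89 at P2, 9.70, 10.07 and 10.15 at P3 and 9.40, 9.20 and 9.38 at P4. The first 3 ages overlapped, P4 lay below them, and Nedd4l fell by 0.73 ± 0.12 to P4 (adjusted p = 2.51e-05). At P3 knockout was higher by 0.51 ± 0.12 (adjusted p = 0.00209). Nedd4l had 6 probe sets, and they did not move together. The brightest had a mean of 9.81 over the 42 arrays and the next 7.81. The rest were dim, with means of 4.50 to 5.78, while the array medians ran from 6.31 to 6.4. From P1 to P4 in wild type 4 of the 6 were called lower, but of the change to P2 only that of the brightest was called, and the mean of all 6 moved by -0.045. At P3 another probe set was called lower in knockout, with a difference of -0.60, and the mean of all 6 differed by 0.09.

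Cftr, the chloride channel of the secreting fetal epithelium, fell in wild type and varied widely between pups in some knockout groups. Wild-type air arrays read 8.19, 8.64 and 8.68 at P1, 7.18, 7.82 and 7.85 at P2, 7.44, 7.46 and 7.38 at P3 and 7.33, 7.57 and 7.23 at P4, with P1 above the rest. It fell by 0.88 ± 0.28 to P2 (adjusted p = 0.0274) and by 1.12 ± 0.28 to P4, 2.18-fold (adjusted p = 0.0028). The fall to P2 lost its call without any 1 of these arrays: wild-type P1 replicate 2 or 3, wild-type P2 replicate 1 (-0.82 to -0.67, adjusted p up to 0.166). In knockout air it read 8.76, 8.94 and 8.85 at P1, 7.68, 8.88 and 6.97 at P2, 7.76, 8.13 and 8.44 at P3 and 8.03, 7.88 and 8.10 at P4. The P4 arrays lay below those of P1, where Cftr fell by 0.85 ± 0.28 (adjusted p = 0.0261), a fall that lost its call without any 1 of these arrays: knockout P1 replicate 2 or 3, knockout P4 replicate 1 or 2 (-0.86 to -0.79, adjusted p up to 0.082). The knockout P2 pups spanned nearly the whole range of the air arrays. Their difference from P1, -1.002 ± 0.28 (adjusted p = 0.0149), was not called without any 1 of these arrays: knockout P1 replicate 2, knockout P2 replicate 1 or 3 (-0.96 to -0.56, adjusted p up to 0.165). Replicate 3 of P2 also had skeletal muscle, liver and thymocyte markers over the limit. Cftr at P3 differed between genotypes by 0.68 ± 0.28 and was not called (adjusted p = 0.0762), although the arrays did not overlap. The second Cftr probe set rose above the 10th percentile of its array in 1 of 42 arrays and was not read.

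Aqp5, the water channel of the air-facing alveolar surface, fell in both genotypes after birth. In wild-type air it read 11.54, 11.54 and 11.52 at P1, 9.89, 10.53 and 10.70 at P2, 10.61, 10.60 and 10.68 at P3 and 10.66, 10.67 and 10.49 at P4. The P1 pups lay above every later one. Aqp5 fell by 1.16 ± 0.14 to P2, 2.23-fold (adjusted p = 1.48e-06), and by 0.92 ± 0.14 to P4 (adjusted p = 8.44e-06). Knockout arrays read 11.39, 11.67 and 11.83 at P1, 10.74, 11.02 and 10.45 at P2, 11.37, 11.47 and 11.65 at P3 and 10.90, 10.71 and 10.91 at P4. Here P2 and P4 lay below P1 without overlap, and P3 reached back into the range of P1. In knockout it fell by 0.89 ± 0.14 to P2 (adjusted p = 0.000116) and by 0.79 ± 0.14 to P4 (adjusted p = 9.03e-05). At P3 knockout exceeded wild type by 0.87 ± 0.14, 1.83-fold (adjusted p = 3.42e-05). The genotypes' changes from P1 to P3 differed by 0.77 ± 0.20 (adjusted p = 0.00902).

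Aqp1, the water channel of capillary endothelium and red cells, moved little in wild-type lungs kept in air. Wild-type air arrays read 13.21, 13.50 and 13.44 at P1, 12.65, 13.15 and 13.08 at P2, 13.16, 13.18 and 13.21 at P3 and 13.13, 13.13 and 13.01 at P4. The P1 arrays were the highest, by a narrow margin. Aqp1 fell by 0.42 ± 0.11 to P2 (adjusted p = 0.00641) and by 0.29 ± 0.11 to P4, 1.22-fold (adjusted p = 0.0486). The fall to P4 kept its call in 8 of 15 alternatives and lost it without any 1 of these arrays: wild-type P1 replicate 2 or 3, wild-type P4 replicate 1, 2 or 3 (-0.31 to -0.23, adjusted p up to 0.208). The fall to P2 was not called without wild-type P2 replicate 1 (-0.27, adjusted p = 0.101). Knockout arrays read 13.49, 13.28 and 13.44 at P1, 12.93, 13.29 and 12.84 at P2, 13.61, 13.71 and 13.73 at P3 and 13.23, 13.14 and 13.26 at P4. The P3 pups were the highest of all 14 groups and did not overlap the next, knockout P1. At P3 knockout was higher by 0.50 ± 0.11 (adjusted p = 0.00102), and the change from P1 to P3 differed between genotypes by 0.48 ± 0.15 (adjusted p = 0.0343). That difference lost its call without any 1 of these arrays: wild-type P1 replicate 2 or 3, wild-type P3 replicate 1 or 2, knockout P1 replicate 2, knockout P3 replicate 2 or 3 (0.42 to 0.48, adjusted p up to 0.0993). In knockout Aqp1 fell by 0.38 ± 0.11 to P2 (adjusted p = 0.0174), not called without any 1 of knockout P1 replicate 1 or 3, knockout P2 replicate 1 or 3 (-0.36 to -0.29, adjusted p up to 0.113).

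Aqp4, the water channel of airway epithelium, was not called at any age in air in either genotype. Its values ran from 7.75, 6.86 and 7.18 at P1 to 6.28, 7.23 and 6.55 at P4 in wild type and from 7.09, 6.68 and 6.94 to 6.32, 6.10 and 5.91 in knockout. Wild-type pups of 1 age differed by over 1 unit at P2, with 7.85, 6.47 and 7.55. In limma the difference from P1 to P4 was -0.57 ± 0.39 in wild type (adjusted p = 0.352, 95% interval -1.37 to 0.22). In knockout it was -0.79 ± 0.39 (adjusted p = 0.152, 95% interval -1.59 to 0.0012). The wild-type interval holds the median difference of the 9 genes, -0.92. In knockout that median was -0.79, the same as the Aqp4 difference itself, so its place in the interval says nothing. Aqp4 is also abundant in skeletal muscle. In knockout P3 it read 6.05, 7.31 and 6.03, highest in replicate 2, the array with the highest skeletal muscle score, where Mylpf, a myosin light chain of fast muscle, reached 13.20 against a median of 5.77 over all arrays. The part of muscle RNA in that value was not tested.

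**Figure D2:**
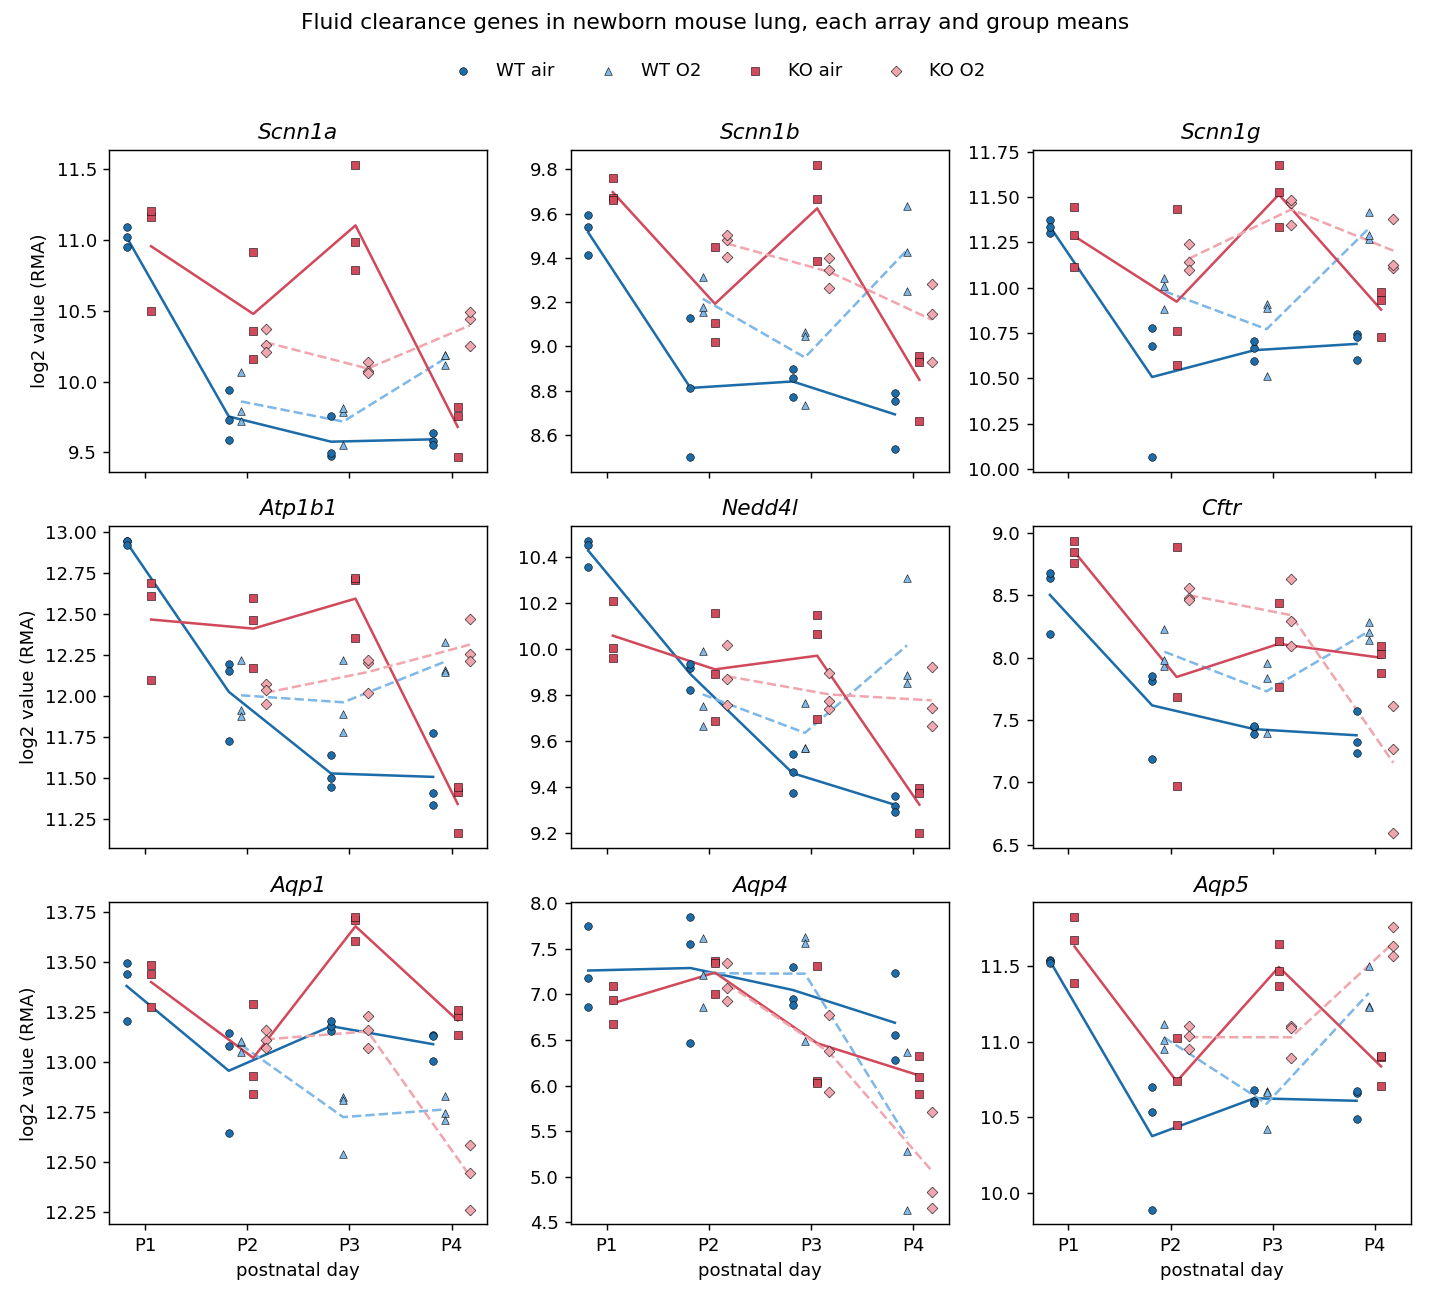
The log2 value of each gene in every array by postnatal day (x axis), with circles for wild type in air, triangles for wild type in O2, squares for knockout in air and diamonds for knockout in O2; lines join group means, dashed for O2. The knockout P3 squares of the ENaC subunits, Atp1b1, Nedd4l, Aqp1 and Aqp5 stand near or above the P1 squares. Wild-type circles of the same genes lie below those of P1 on every later day, narrowly so for Aqp1.

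Markers of the alveolar epithelium moved with the fall after birth. Of 14 alveolar type 1 markers 11 were called lower at P4 than at P1 in wild type and 10 in knockout, and of 13 alveolar type 2 markers 11 in each. The shares of all genes called lower were 11.3% in wild type and 13.5% in knockout. The mean score of the type 1 list, the mean of its genes' values after centring each gene over the arrays, was 0.20 to 0.36 in wild-type P1 arrays and -0.24 to -0.15 at P4. In knockout it ran from 0.16 to 0.32 at P1 and from -0.26 to -0.08 at P4. That of the type 2 list was 0.35 to 0.44 at P1 and -0.29 to -0.12 at P4 in wild type. In lung homogenate fewer cells of a type and less RNA per cell cannot be told apart, and the part of these markers in the fall was not tested. At P3 the type 1 score was -0.10 to 0.08 in knockout and -0.12 to -0.02 in wild type, and 4 of 14 type 1 markers were called higher in knockout and 1 lower. The type 2 score did not overlap there, at -0.077 to 0.12 in knockout and -0.29 to -0.10 in wild type, with 3 of 13 markers called higher. Nor did the endothelial score, at 0.12 to 0.26 in knockout and -0.074 to 0.056 in wild type, with 2 of 12 markers called higher. The share of all genes called higher in knockout at P3 was 8.99%. That called lower is not given here, so the 1 lower type 1 marker is not read against it. The part of these markers in the difference between genotypes at P3 was not tested.

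Averaged over the 4 ages in air, 7 of the 9 genes were higher in knockout than in wild type, where 14.5% of all genes were called higher. At P3 alone, 7 of the 9 were called higher (8.99% of all genes), and 8 did not overlap (38.9% of all genes). At P4 0 were called in limma (0.726% of all genes), with 1, Cftr, at an unadjusted p under 0.05. With P3 left out of the mean, a choice made after the values were seen, 2 of the 9 were called: Scnn1b, higher by 0.24 (adjusted p = 0.0242), and Aqp5, higher by 0.23 (adjusted p = 0.0462). With all ages these differences were 0.38 ± 0.065 for Scnn1b (adjusted p = 6.83e-05) and 0.39 ± 0.07 for Aqp5 (adjusted p = 0.000113). Atp1b1 changed sign without P3, from 0.20 ± 0.073 (adjusted p = 0.0367) to -0.083 (adjusted p = 0.515), and with all ages it lost its call without any 1 of these arrays: wild-type P1 replicate 3, wild-type P2 replicate 2, wild-type P3 replicate 1, wild-type P4 replicate 1 or 2, knockout P1 replicate 1 or 3, knockout P2 replicate 2 or 3, knockout P3 replicate 2 or 3, knockout P4 replicate 1 or 3 (0.17 to 0.20, adjusted p up to 0.0808).

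Skeletal muscle and liver markers also differed between the genotypes. At P3, 7 of 12 skeletal muscle markers were called higher in knockout, with a score from 0.04 to 4.31 in the knockout arrays and from -0.29 to -0.19 in wild type. Averaged over the ages, 10 of 10 liver markers and 6 of 12 heart muscle markers were called lower in knockout, beside 14.4% of all genes. With the scores of these tissues as covariates, 8 of the 9 genes were called higher in knockout at P3 and Aqp4 lower, by a difference of -1.28 (adjusted p = 0.0185), and without the arrays over the limit 7 were. The latter fit leaves 1 wild-type and 2 knockout arrays at P3 and assumes that the lone array varies like those of the other groups. The knockout P3 arrays correlated over all genes most closely with knockout pups after 1 day of O2, at a mean r of 0.988. The mean r was 0.987 with those after 2 days, and 0.986 with the knockout pups of P1 and of P4 in air. This was not particular to P3: knockout pups after 1 day of O2 were also the closest group to knockout air pups of P1, P2 and P4. Their mean r with P1 and P4 was higher than with P3, and that with P2 was lower.

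In wild type, few of the genes were called before the third day of hyperoxia. After 1 day 1 was called, Aqp5, higher by 0.65 ± 0.14 (adjusted p = 0.0054), beside 2.64% of all genes called higher. Of the 9 genes, 3 had an unadjusted p under 0.05 in limma at that time. The Aqp5 arrays read 10.96, 11.01 and 11.12 in O2 and 9.89, 10.53 and 10.70 in air, apart without overlap. Leaving out the lowest air array, wild-type P2 replicate 1, gave 0.41, adjusted p = 0.0674. After 2 days 1 was called, Aqp1, lower by a difference of -0.45 ± 0.11 (adjusted p = 0.00935), beside 2.51% of all genes called lower. At 2 days 2 of the 9 had an unadjusted p under 0.05. The Aqp1 arrays read 12.54, 12.83 and 12.81 in O2 and 13.16, 13.18 and 13.21 in air. Without wild-type O2 2 days replicate 1 the difference was -0.36, adjusted p = 0.095.

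After 3 days of hyperoxia all 9 genes were called in wild type, 7 higher and 2 lower. Across all genes 15% were called higher and 12.5% lower. The 7 that rose were the ENaC subunits, Atp1b1, Nedd4l, Cftr and Aqp5. The 2 that fell were Aqp1 and Aqp4. For 8 genes the O2 and air arrays did not overlap (44.7% of all genes), Aqp4 being the exception. In knockout lungs 7 of the 9 were called, 4 higher (17% of all genes) and 3 lower (14.7% of all genes). The direction was shared with wild type except for Cftr, which rose in wild type and fell in knockout. With any 1 of the 6 arrays of a comparison left out, 7 or 8 of the 9 were called in wild type and 5 or 6 in knockout.

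**Figure D3:**
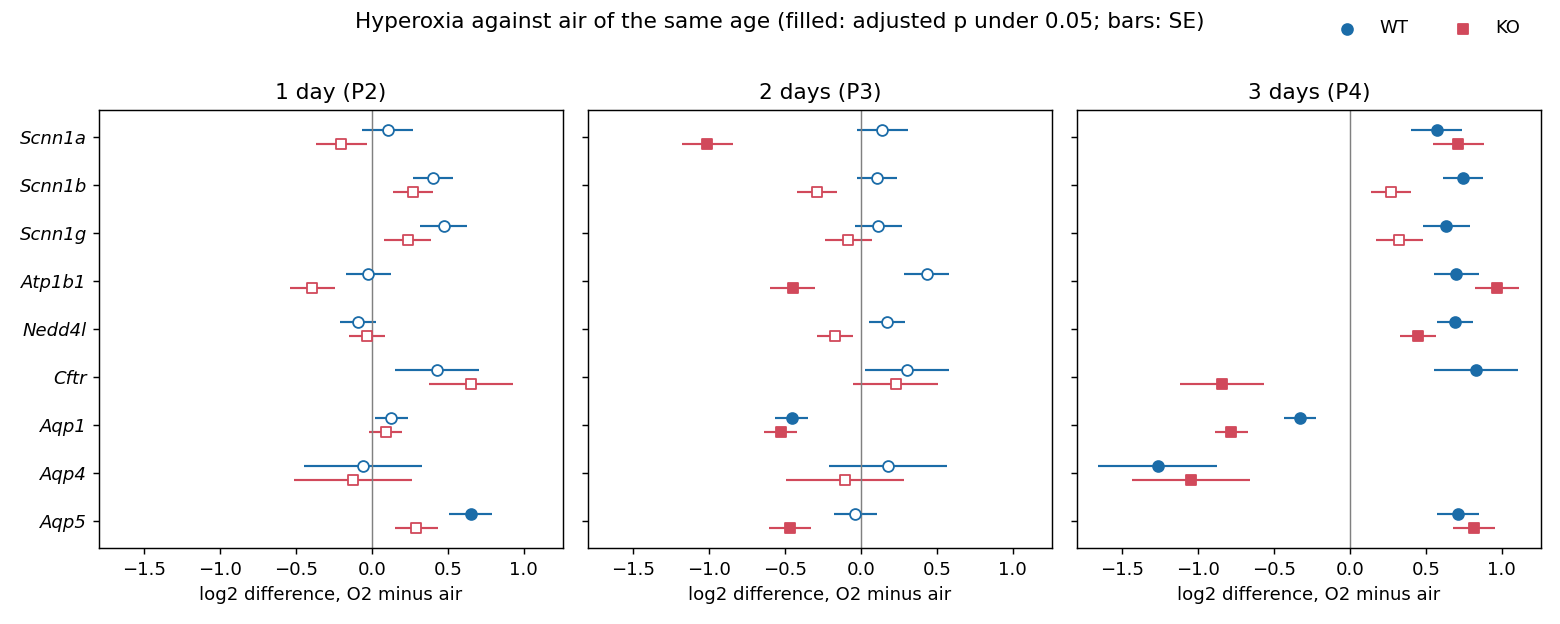
Difference of O2 minus air of the same age for each gene after 1, 2 and 3 days (x axis, log2, bars SE; filled symbols have an adjusted p under 0.05), in wild type (circles) and knockout (squares). In the 3-day panel all 9 wild-type symbols are filled, 7 to the right, and the Cftr square lies at -0.84 against 0.83 for the Cftr circle.

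The ENaC subunits rose together in wild type after 3 days. Scnn1a read 10.19, 10.12 and 10.19 in O2 and 9.64, 9.58 and 9.55 in air, a rise of 0.57 ± 0.17 (adjusted p = 0.00976). Scnn1b read 9.25, 9.43 and 9.63 in O2 and 8.75, 8.79 and 8.53 in air, a rise of 0.74 ± 0.13, 1.67-fold (adjusted p = 4.57e-05). Scnn1g read 11.27, 11.29 and 11.42 in O2 and 10.74, 10.73 and 10.60 in air, a rise of 0.64 ± 0.15 (adjusted p = 0.00194). In each case every O2 pup was above every air pup. The O2 mean of Scnn1g, 11.33, was close to its mean at P1 in air, 11.34, while that of Scnn1a, 10.16, stayed below its P1 mean of 11.02. Alveolar type 1 markers moved the same way, with 7 of 14 called higher and 1 lower in wild type, and a score of 0.11 to 0.19 in O2 against -0.24 to -0.15 in air. In knockout 4 were called higher and 2 lower, and the score was -0.02 to 0.18 in O2 against -0.26 to -0.08 in air. The shares of all genes were 15% higher and 12.5% lower in wild type, and 17% and 14.7% in knockout. The part of the type 1 markers in the rise of the ENaC subunits was not tested.

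In knockout only the alpha subunit was called after 3 days. Scnn1a read 10.44, 10.25 and 10.49 in O2 and 9.82, 9.47 and 9.76 in air, a rise of 0.72 ± 0.17 (adjusted p = 0.00119). Scnn1b, with 8.93, 9.15 and 9.28 in O2 and 8.96, 8.66 and 8.93 in air, differed by 0.27 ± 0.13 (adjusted p = 0.115). Scnn1g, with 11.11, 11.12 and 11.38 in O2 and 10.93, 10.73 and 10.98 in air, differed by 0.33 ± 0.15 (adjusted p = 0.109). The Scnn1b arrays overlapped, and each Scnn1g O2 array lay above the air arrays. The genotypes' responses to 3 days were not shown to differ for the subunits: the difference for Scnn1b was -0.47 ± 0.19 (adjusted p = 0.213; 95% interval -0.85 to -0.094).

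Atp1b1 rose after 3 days in both genotypes. It read 12.33, 12.16 and 12.15 in wild-type O2 and 11.34, 11.41 and 11.78 in air, a rise of 0.70 ± 0.15, 1.63-fold (adjusted p = 0.000391). In knockout it read 12.47, 12.26 and 12.22 in O2 and 11.42, 11.16 and 11.45 in air, a rise of 0.97 ± 0.15, 1.96-fold (adjusted p = 4.25e-06). The arrays did not overlap in either genotype. In wild type 4 of its 5 probe sets were called higher, and the dim remaining one read -0.22 and was not called.

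Nedd4l depended on the probe set. The brightest read 10.31, 9.85 and 9.89 in wild-type O2 and 9.32, 9.29 and 9.36 in air, a rise of 0.69 ± 0.12 (adjusted p = 3.08e-05), and 9.92, 9.74 and 9.66 in knockout O2 against 9.40, 9.20 and 9.38 in air, a rise of 0.45 ± 0.12 (adjusted p = 0.00334). Of the other 5 probe sets in wild type 1 read 0.58 and was not called, 1 read -0.55 and was called lower, and 3 read -0.39, -0.32 and -0.06. The mean of all 6 differed by -0.0078 in wild type (adjusted p = 0.974). That mean gives the dim probe sets, with means of 4.50 to 5.78 over the 42 arrays, the same weight as the brightest. In wild type the Nedd4l rise in O2 was called for 1 probe set only.

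Cftr was the gene whose response to 3 days differed between genotypes. It read 8.14, 8.20 and 8.29 in wild-type O2 and 7.33, 7.57 and 7.23 in wild-type air, a rise of 0.83 ± 0.28 (adjusted p = 0.0227) that lost its call without any 1 of these arrays: wild-type P4 replicate 1 or 3, wild-type O2 3 d replicate 3 (0.76 to 0.81, adjusted p up to 0.0798). In knockout it read 6.59, 7.27 and 7.61 in O2 and 8.03, 7.88 and 8.10 in air, a difference of -0.84 ± 0.28 (adjusted p = 0.0188). Each wild-type O2 pup was above the air pups and each knockout O2 pup below them. The responses differed by -1.67 ± 0.39 (adjusted p = 0.0401), the only one of the 9 called at 3 days, where 0.401% of all genes were called lower. This call was kept in 9 of 21 alternatives, with a difference from -1.90 to -0.96. It lost its call without any 1 of these arrays: wild-type P4 replicate 1, 2 or 3, wild-type O2 3 d replicate 1, 2 or 3, knockout P4 replicate 1 or 3, knockout O2 3 d replicate 1 or 2 (-1.77 to -1.39, adjusted p up to 0.121). Knockout O2 3 d replicate 1 was the lowest Cftr array of all 42. The knockout fall was not called without either of knockout P4 replicate 3, knockout O2 3 d replicate 1 (-0.79 to -0.56, adjusted p up to 0.169). Among the O2 pups of 3 days themselves Cftr was lower in knockout by a difference of -1.05 ± 0.28 (adjusted p = 0.0138), and Aqp1 by -0.33 ± 0.11 (adjusted p = 0.0451). Cftr lost its call without any 1 of these arrays: wild-type O2 3 d replicate 3, knockout O2 3 d replicate 1 (-1.02 to -0.77, adjusted p up to 0.112), and Aqp1 without any 1 of these: wild-type O2 3 d replicate 1, 2 or 3, knockout O2 3 d replicate 1 or 2 (-0.36 to -0.25, adjusted p up to 0.222). These were 2 of the 9 genes, beside 6.14% of all genes called lower, and 4 of the 9 had an unadjusted p under 0.05.

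The aquaporins split. Aqp5 rose after 3 days, from 10.66, 10.67 and 10.49 in air to 11.23, 11.23 and 11.50 in O2 in wild type, by 0.71 ± 0.14 (adjusted p = 0.000202). In knockout it rose from 10.90, 10.71 and 10.91 to 11.57, 11.64 and 11.76, by 0.82 ± 0.14 (adjusted p = 2.9e-05). Its mean in knockout O2 was the highest of the 14 groups, next to that of knockout P1. Aqp1 went the other way: it read 12.75, 12.71 and 12.83 in wild-type O2 against 13.13, 13.13 and 13.01 in air, a difference of -0.33 ± 0.11 (adjusted p = 0.0217). In knockout it read 12.45, 12.26 and 12.59 in O2 against 13.23, 13.14 and 13.26 in air, where it fell by 0.78 ± 0.11, 1.71-fold (adjusted p = 1e-06). In both genotypes all O2 arrays lay below all air arrays. The wild-type fall of Aqp1 lost its call without any 1 of these arrays: wild-type P4 replicate 1 or 2, wild-type O2 3 d replicate 1 or 2 (-0.32 to -0.30, adjusted p up to 0.0712). The endothelial score overlapped between the groups, at -0.18 to 0.06 in wild-type O2 and -0.11 to -0.01 in air, and at -0.23 to 0.16 in knockout O2 and -0.10 to 0.20 in air. Of 12 endothelial markers 2 were called higher and 3 lower in wild type, beside 15% and 12.5% of all genes. In knockout 1 was called higher and 4 lower, beside 17% and 14.7%. Pecam1, a junction protein of endothelium, differed by -0.37 ± 0.11 in knockout (adjusted p = 0.00605), while Cdh5 and Kdr, which mark the same cells, were called in neither genotype. The red cell score was lower in wild-type O2, at -0.35 to -0.27 against 0.38 to 0.53 in air. Of its 9 markers 2 were called lower there, beside 12.5% of all genes. In knockout 0 of the 9 were called in limma, with 2 at an unadjusted p under 0.05, and the score was -0.42 to 0.05 in O2 against -0.21 to 0.22 in air. The part of either marker list in the fall of Aqp1 was not tested.

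Aqp4 fell after 3 days in O2, with a wide spread between pups. It read 4.64, 6.37 and 5.28 in wild-type O2 and 6.28, 7.23 and 6.55 in air, a difference of -1.26 ± 0.39 (adjusted p = 0.0138). In knockout it read 5.71, 4.65 and 4.83 in O2 and 6.32, 6.10 and 5.91 in air, a difference of -1.04 ± 0.39 (adjusted p = 0.0391). The wild-type groups overlapped by 1 O2 array and the knockout groups did not. Each call was kept in 8 of 14 alternatives. The wild-type one lost its call without any 1 of these arrays: wild-type P4 replicate 2, wild-type O2 3 d replicate 1 or 3 (-1.19 to -0.87, adjusted p up to 0.143). The knockout one did so without any 1 of these: knockout P4 replicate 1, 2 or 3, knockout O2 3 d replicate 2 or 3 (-1.14 to -0.84, adjusted p up to 0.169). The second Aqp4 probe set differed by -0.72 in wild type and -0.33 in knockout, and was called in neither. Markers of airway epithelium fell in the same groups: 4 of 9 were called lower in wild type and 3 of 9 in knockout, beside 12.5% and 14.7% of all genes. Among them Cyp2f2, an enzyme of club cells, changed by -1.66 ± 0.25 in wild type and -2.64 ± 0.25 in knockout. The airway score was -0.60 to -0.08 in wild-type O2 against -0.10 to 0.18 in air, and -1.18 to -0.05 in knockout O2 against -0.30 to -0.13 in air. Scgb1a1, the main club cell protein, fell as well, with no overlap. In wild type it lay between 14.25 and 14.38 in O2 and between 14.65 and 14.71 in air, a difference of -0.36 ± 0.059 (adjusted p = 1.9e-05). In knockout it lay between 13.91 and 14.23 in O2 and between 14.65 and 14.72 in air, a difference of -0.60 ± 0.059 (adjusted p = 1.95e-09). The part of the airway markers in the fall of Aqp4 was not tested.

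**Figure D4:**
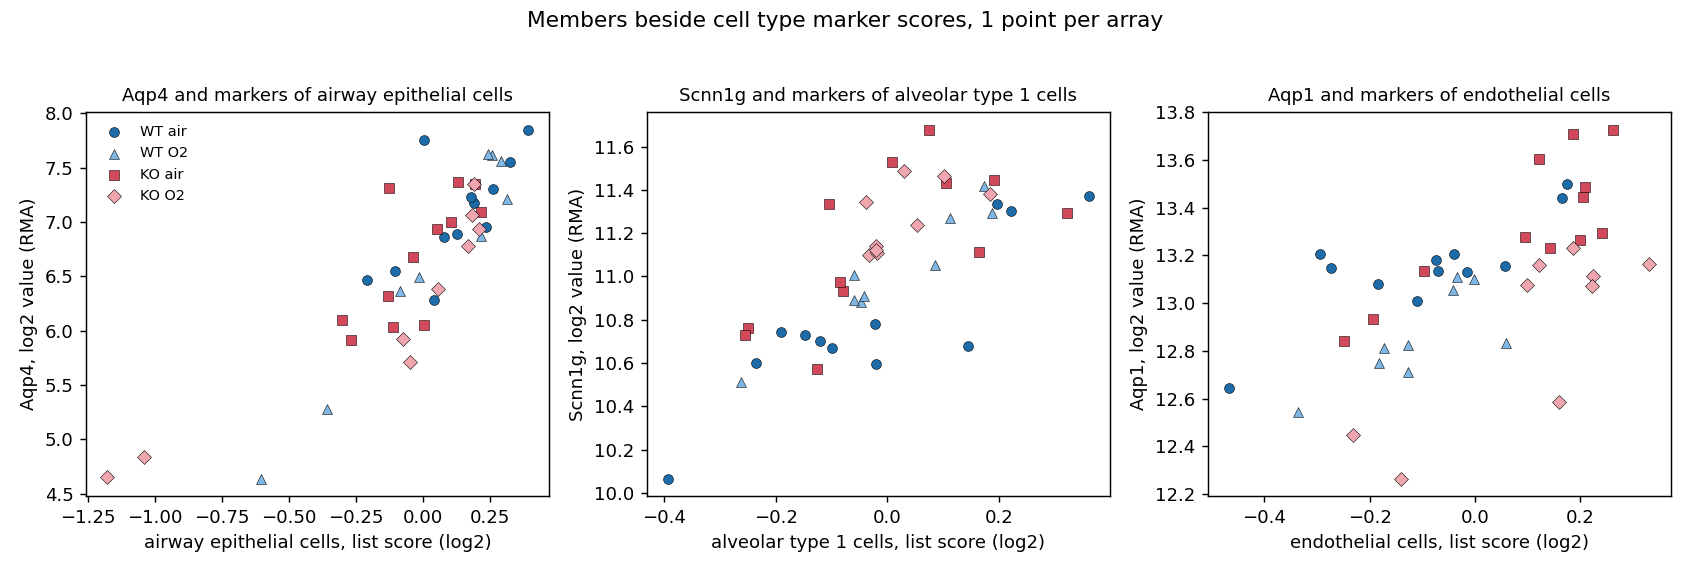
The log2 value of Aqp4, Scnn1g and Aqp1 in each of 42 arrays (y axis) against the score of a marker list (x axis, mean log2 value of the list after centring): airway epithelium, alveolar type 1 cells and endothelium. The lowest Aqp4 points lie at the lowest airway scores, and the diamonds of knockout O2 include the lowest Aqp1 points.

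After 2 days of hyperoxia the called genes of knockout lungs were lower than in air. There 4 of the 9 genes were lower in O2 than in air (3.7% of all genes): Scnn1a by -1.01 ± 0.17 (adjusted p = 0.000101), Aqp1 by -0.53 ± 0.11 (adjusted p = 0.00117), Aqp5 by -0.46 ± 0.14 (adjusted p = 0.0256) and Atp1b1 by -0.45 ± 0.15 (adjusted p = 0.0409). The air side of this comparison is the knockout P3 group. Scnn1a read 10.14, 10.08 and 10.06 in O2 and 10.79, 10.99 and 11.53 in air. These O2 arrays lay below the knockout O2 arrays of 1 and 3 days, which ran from 10.20 to 10.49. They lay above the wild-type O2 arrays of 2 days, which ran from 9.55 to 9.81. The O2 response at 2 days differed between genotypes for 2 genes, Scnn1a by -1.15 ± 0.24 (adjusted p = 0.00855) and Atp1b1 by -0.88 ± 0.21 (adjusted p = 0.0211), beside 0.423% of all genes called lower. Without knockout P3 replicate 2 or 3, or without knockout O2 2 days replicate 2 or 3, 2 of the 4 genes were called lower. Atp1b1 lost its call without any 1 of these arrays: knockout P3 replicate 2 or 3, knockout O2 2 d replicate 1, 2 or 3 (-0.48 to -0.38, adjusted p up to 0.161), and Aqp5 without any 1 of these: knockout P3 replicate 2 or 3, knockout O2 2 d replicate 2 or 3 (-0.49 to -0.39, adjusted p up to 0.132). The Atp1b1 difference in response did so without any 1 of wild-type P3 replicate 1, wild-type O2 2 d replicate 1, knockout P3 replicate 2 or 3, knockout O2 2 d replicate 2 (-0.84 to -0.75, adjusted p up to 0.0991). After 1 day of O2 0 genes were called in knockout in limma (9.06% of all genes), with 4 at an unadjusted p under 0.05.

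Between the genotypes in O2 few of the genes were called. After 1 day 0 were called in limma (2.96% of all genes), with 1 at an unadjusted p under 0.05. After 2 days knockout was higher in Scnn1g, with 11.46, 11.34 and 11.49 against 10.51, 10.91 and 10.89, by 0.66 ± 0.15 (adjusted p = 0.00895), and in Aqp1, with 13.16, 13.07 and 13.23 against 12.54, 12.83 and 12.81, by 0.43 ± 0.11 (adjusted p = 0.0154). Those were 2 of the 9, beside 3.1% of all genes called higher, and 7 of the 9 had an unadjusted p under 0.05. The median difference of the 9 genes after 2 days was 0.39, that of all genes 0.0002. Scnn1g lost its call without either of wild-type O2 2 d replicate 1, knockout O2 2 d replicate 3 (0.53 to 0.63, adjusted p up to 0.0851). Aqp1 did so without any 1 of wild-type O2 2 d replicate 1, knockout O2 2 d replicate 1 or 3 (0.34 to 0.43, adjusted p up to 0.122). Averaged over the 3 days, Scnn1a was higher in knockout by 0.34 ± 0.097 (adjusted p = 0.0173) and Aqp5 by 0.26 ± 0.081 (adjusted p = 0.0325), 2 of the 9 beside 6.3% of all genes. Aqp5 lost its call without any 1 of these arrays: wild-type O2 1 d replicate 1, wild-type O2 2 d replicate 1, wild-type O2 3 d replicate 1 or 2, knockout O2 1 d replicate 2 or 3, knockout O2 2 d replicate 1 or 3, knockout O2 3 d replicate 3 (0.23 to 0.26, adjusted p up to 0.0735). With the 2-day groups left out 0 were called between genotypes. The mean response to O2 did not differ by the test between genotypes for any of the 9 in limma (1.19% of all genes), with 5 at an unadjusted p under 0.05. Without the 2-day groups 0 were called as well. Averaged over the 3 days, O2 against air was called for 8 of the 9 in wild type, 7 higher (14.4% of all genes) and Aqp1 lower (9.53% of all genes), and for 1 in knockout, Aqp1, lower by a difference of -0.40 ± 0.062 (7.28% of all genes). The knockout mean includes the 2-day comparison, whose air side is the P3 group. With the 2-day groups left out, 7 were called in wild type, all higher and without Aqp1 (-0.098, adjusted p = 0.411). In knockout 4 were: Aqp1, lower by a difference of -0.34, and Scnn1b, Atp1b1 and Aqp5, higher by 0.27 (adjusted p = 0.0379), 0.29 (adjusted p = 0.0495) and 0.56 (adjusted p = 0.000127).

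Over the 14 groups each gene had its own order of levels. Scnn1a, Scnn1g and Aqp1 were highest in knockout P3 in air, Scnn1b and Cftr in knockout P1, Atp1b1 and Nedd4l in wild-type P1, Aqp4 in wild-type P2 and Aqp5 in knockout after 3 days of O2. The lowest groups were wild type in air for Scnn1a (P3), Scnn1b (P4), Scnn1g and Aqp5 (P2) and Nedd4l (P4), knockout P4 in air for Atp1b1, and knockout after 3 days of O2 for Aqp1, Aqp4 and Cftr. Neighbours in these orders mostly overlapped: of 13 neighbouring pairs 13 overlapped for Scnn1b and Aqp4, 12 for Scnn1a, Scnn1g, Aqp1 and Cftr, and 11 for Atp1b1, Aqp5 and Nedd4l. The wild-type P1 groups of Atp1b1 and Nedd4l, the knockout P1 group of Cftr and the knockout P3 group of Aqp1 stood alone at the top.

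Across the 14 group means, Atp1b1 and Nedd4l ran most closely together among the 9 genes (r = 0.94), followed by Scnn1a and Atp1b1 (0.90) and by Scnn1b and Scnn1g (0.89). Within groups, over the 42 deviations from the group means, Scnn1g ran with Aqp1 at 0.91, with Scnn1b and Cftr at 0.83 each and with Aqp5 at 0.79. These points share arrays, RNA and normalisation, so the values are a description. Aqp4 followed the airway score over the group means at 0.95. Nedd4l followed the alveolar type 1 score at 0.83, and Aqp5 and Scnn1b at 0.81 each. Other scores ran as closely the opposite way: the red cell score related to Scnn1g at -0.91, to Scnn1b at -0.83 and to Aqp5 at -0.80. Among all genes, those most like Aqp4 over the 14 means were Ccdc153 (0.96), Rsph4a and Drc3 (0.95 each). Those most like Scnn1a were Jam2 (0.96), Rnf139 and Sh3d21 (0.95 each), and those most like Scnn1b were Arhgap22 (0.98), Sft2d3 and Hopx (0.95 each). For Scnn1g they were Pxk (0.94), Myo1d and Ostf1 (0.93 each), and for Aqp5 Orai1 (0.96), Epn3 (0.95) and Tmem243 (0.94). For Aqp1 they were Strn (0.96), Efnb1 (0.95) and Tns1 (0.94), and for Cftr Cpm (0.90), Cmtm4 and Hpse (0.88 each). After each other, Atp1b1 had Mtfr1l (0.93) and Psen2 (0.92), and Nedd4l had Ubr3 and Lmo7 (0.93 each).

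Other genes of salt and water transport were read from 7 lists with 64 measured genes. From P1 to P4 in wild type 26 of the 64 were called lower and 2 higher, where 11.3% of all genes were lower and 11.2% higher. In knockout 26 were lower and 1 higher, beside 13.5% and 8.09% of all genes. After 3 days of O2, 21 were higher and 4 lower in wild type, beside 15% and 12.5% of all genes, and 16 higher and 6 lower in knockout, beside 17% and 14.7%. Averaged over the ages in air, 7 were higher and 8 lower in knockout than in wild type, beside 14.5% and 14.4% of all genes, and in O2 4 and 4, beside 6.3% and 6.18%. In these means between the genotypes the 64 genes were thus called about as often as all genes, or less. At P3 in air alone they were called higher more often: 11 were higher and 4 lower in knockout, beside 8.99% of all genes higher. The share of all genes called lower at P3 is not given here, so the 4 lower genes are not read against it. For each list that follows, the background is the share of all genes given here for the same comparison.

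Tight junction genes, which seal the path between cells, were measured for 8 members. From P1 to P4 6 of the 8 were called lower in each genotype, and after 3 days of O2 6 were called higher in wild type and 3 in knockout. Cldn4, a claudin known to lower paracellular sodium leak, went from 9.74 at P1 to 7.95 at P4 in wild type, where it fell by 1.80 ± 0.20 (adjusted p = 9.83e-08). In O2 it reached 11.29 after 3 days, 10.1-fold over air (adjusted p = 5.72e-14), and in knockout it was 8.24-fold over air (adjusted p = 6.12e-13). Cldn3 fell by 1.24 ± 0.12 from P1 to P4 in wild type (adjusted p = 1.59e-08) and differed by -1.502 ± 0.12 in knockout (adjusted p = 3.51e-09). Cldn7 was higher by 0.84 ± 0.096 in wild type after 3 days of O2 (adjusted p = 3.47e-08) and by 0.69 ± 0.096 in knockout (adjusted p = 1.1e-06). Cldn18, the claudin of the alveolar epithelium, was lower in knockout, by a difference of -0.36 ± 0.071 in air (adjusted p = 0.00027) and -0.46 ± 0.082 in O2 (adjusted p = 0.000253).

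Of the proteases that cut ENaC and their inhibitors, 6 of 9 were lower at P4 than at P1 in each genotype and 4 of 9 higher after 3 days of O2 in each. Prss8, which encodes the channel-activating protease prostasin, fell by 0.84 ± 0.12 from P1 to P4 in wild type (adjusted p = 3.31e-06), and Spint1, an inhibitor of such proteases, fell by 0.88 ± 0.098 (adjusted p = 8.21e-08). In knockout Tmprss2 fell by 1.33 ± 0.17 (adjusted p = 7.43e-07) and Spint1 by 0.96 ± 0.098 (adjusted p = 2.4e-08). St14, which encodes matriptase, was higher after 3 days of O2 by 0.98 ± 0.09 in wild type (adjusted p = 4.3e-10) and 1.01 ± 0.09 in knockout (adjusted p = 2.79e-10). In wild type Spint1 rose as well, by 0.78 ± 0.098 (adjusted p = 2.11e-07), and in knockout Ctsb, a cathepsin, by 0.84 ± 0.073 (adjusted p = 1.77e-10). Tmprss4 was lower in knockout than in wild type, by a difference of -0.49 ± 0.067 in air (adjusted p = 2.51e-06) and -0.35 ± 0.078 in O2 (adjusted p = 0.00218), and Furin higher, by 0.26 ± 0.043 (adjusted p = 3.66e-05) and 0.16 ± 0.05 (adjusted p = 0.0281).

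Of 6 partners of the sodium pump, 2 were lower from P1 to P4 in each genotype. Fxyd5, a pump regulator, fell by 0.85 ± 0.12 in wild type (adjusted p = 1.78e-06) and by 0.91 ± 0.12 in knockout (adjusted p = 6.71e-07). After 3 days of O2 it was higher by 1.12 ± 0.12 in wild type (adjusted p = 6.35e-09) and by 1.33 ± 0.12 in knockout (adjusted p = 1.84e-10), where Fxyd3 rose too, by 0.84 ± 0.15. Atp1b2, another beta subunit, fell by 0.54 ± 0.17 from P1 to P4 in wild type (adjusted p = 0.0219) and differed by -0.55 ± 0.17 after 3 days of O2 (adjusted p = 0.0149), where Atp1b1 rose. Fxyd6 was lower in knockout in air by a difference of -0.49 ± 0.15 (adjusted p = 0.0167). In knockout Fxyd3 fell by 0.52 ± 0.15 from P1 to P4 (adjusted p = 0.0139).

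Of 11 kinases and trafficking factors of ENaC, 5 were lower from P1 to P4 and 1 higher in wild type, and 3 lower and 1 higher in knockout. After 3 days of O2 4 were higher and 1 lower in wild type, and 2 higher and 1 lower in knockout. Wnk4, a kinase of salt transport, fell by 0.53 ± 0.11 in wild type (adjusted p = 0.000417) and by 0.66 ± 0.11 in knockout from P1 to P4, and rose by 0.63 ± 0.11 and 0.63 ± 0.11 after 3 days of O2 (adjusted p = 3.73e-05 and 3.27e-05). Wnk1 fell by 0.43 ± 0.072 in wild type and by 0.24 ± 0.072 in knockout from P1 to P4. Nedd4, a relative of Nedd4l, was lower after 3 days of O2, by differences of -0.39 ± 0.066 in wild type and -0.48 ± 0.066 in knockout (adjusted p = 2.17e-05 and 8.26e-07). Nedd4 was higher in knockout than in wild type in O2 by 0.16 ± 0.038 (adjusted p = 0.00505). In air Oxsr1, a kinase of chloride transporters, was higher in knockout by 0.13 ± 0.04 and Ndfip1, an adaptor of Nedd4 ligases, differed by -0.088 ± 0.027.

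Among 7 receptors and enzymes for the hormones that act on lung liquid, 1 was higher and 1 lower from P1 to P4 in wild type. Hsd11b2, which inactivates glucocorticoid, rose by 0.82 ± 0.16 (adjusted p = 0.000265), and Hsd11b1, which regenerates it, fell by 0.63 ± 0.16 (adjusted p = 0.00443). In knockout Hsd11b1 fell by 0.50 ± 0.16 and Thra, a thyroid hormone receptor, by 0.29 ± 0.089. After 3 days of O2 Hsd11b2 was lower, by differences of -0.84 ± 0.16 in wild type and -0.80 ± 0.16 in knockout (adjusted p = 0.000148 and 0.000206), and Thra by -0.38 ± 0.089 and -0.47 ± 0.089. Nr3c1, the glucocorticoid receptor, was higher in knockout by 0.14 ± 0.039 in air (adjusted p = 0.00863) and 0.31 ± 0.045 in O2 (adjusted p = 1.73e-05). Nr3c2, the mineralocorticoid receptor, was lower in knockout in O2 by a difference of -0.22 ± 0.064 (adjusted p = 0.0207), and Hsd11b2 in air by -0.23 ± 0.081.

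Of 16 other channels and transporters, 6 were lower from P1 to P4 in each genotype. Kcnj15, a potassium channel, fell by 1.47 ± 0.20 in wild type and by 1.202 ± 0.20 in knockout (adjusted p = 2e-06 and 4.34e-05). Slc12a2, the cotransporter that loads epithelial cells with chloride for secretion, fell by 0.66 ± 0.091 and by 0.42 ± 0.091. After 3 days of O2 4 of the 16 were higher in wild type, led by Kcnk2, a potassium channel, which rose by 1.30 ± 0.15 (adjusted p = 4.78e-08), and by P2ry2, a nucleotide receptor, which rose by 1.22 ± 0.14 (adjusted p = 4.78e-08). In knockout 2 were higher and 2 lower, with Ano1, a calcium-activated chloride channel, higher by 1.00 ± 0.14 (adjusted p = 1.44e-06) and P2ry2 by 0.65 ± 0.14. Kcnk2 was the 1 gene of the 64 whose mean response to O2 differed between genotypes, by -0.56 ± 0.12 (adjusted p = 0.0138). In air Clcn3 was lower in knockout by a difference of -0.18 ± 0.038 and Kcnj15 higher by 0.36 ± 0.10, and in O2 Kcnk2 was lower by -0.58 ± 0.087. Of 7 other aquaporins Aqp3, which passes water and glycerol, rose after 3 days of O2 by 1.09 ± 0.22 in wild type (adjusted p = 0.000242) and 1.02 ± 0.22 in knockout (adjusted p = 0.00044). Aqp2, at a low level here, differed by -0.50 ± 0.16 from P1 to P4 in knockout and by 0.41 ± 0.16 after 3 days of O2, and Aqp9 was lower in knockout in air by a difference of -0.63 ± 0.23.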

How the data were processed

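RNA of whole lung homogenate from 42 mice was hybridised to Affymetrix 3' expression arrays, a mouse per array. The deposited log2 values hold a number per probe set and array. Per the submitters' processing notes the authors used GCOS and RMA, whose versions those notes leave out. RMA subtracts background, gives all arrays a common distribution and combines probes into a value per probe set, so a change shared by most genes would not show, and low values are compressed. The values were used as deposited.

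Of 45101 probe sets, 34958 carried exactly 1 gene symbol in the platform annotation, 932 several, and 9211 were not listed. For each gene the probe set of highest mean over all arrays was kept, which left 18194 genes. Symbols of 18033 genes were found by Entrez number in GRCm38.p6, and 0 differed. The 9 members had 21 probe sets.

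Groups came from the sample titles. A model with 14 group means was fitted to all 42 arrays (limma 3.58.1, R 4.3.3, with the data.table package in version 1.17.8; 28 residual degrees of freedom, 31.4 after moderation). There were 30 contrasts, each two-sided, with Benjamini-Hochberg adjustment over all genes. A difference between genotypes in a change is the knockout change minus the wild-type change. Replicates were mice, n = 3 per group, and this number limits the precision. The members and gene lists were chosen with earlier results of these data known, so no pattern here is independent support for an earlier one. Named genes are the members, up to 2 called genes of smallest p per pathway list in each lead contrast, the 3 genes most like each member (Pearson r over 14 group means, predicted genes left out), Nfe2l2 and the defining markers of other cell types. Other probe sets are given where they differ in sign or call. Any other gene named was chosen after its values were seen. Alternatives were the mean of all probe sets, cyclic loess, array weights, trend and robust variances, the upper 60% of genes, only the arrays of a contrast, tissue scores as covariates, arrays with other tissue left out, a replicate block and each array left out in turn. The fit was tested on simulated data with 18194 genes: for 3 days of O2 in wild type it recovered 79.1% of changes of 0.5, 91% of 1 and 95.5% of 2. The simulated noise was independent between genes and arrays, and only a small part of the genes was changed. In the measured arrays deviations were shared between genes, so these rates need not hold there.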

Additional observations from a re-analysis of the deposited data

Results flagged for a closer look

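The change of a gene differed between the genotypes by the test of the difference itself in 11 cases, each with the knockout change minus the wild-type change on the log2 scale. From P1 to P2 in air this held for Atp1b1, 0.85 ± 0.21 (adjusted p = 0.0253, limma). From P1 to P3 it held for 7 genes: the ENaC subunits Scnn1a, 1.59 ± 0.24, Scnn1b, 0.60 ± 0.19, and Scnn1g, 0.91 ± 0.22; the pump subunit Atp1b1, 1.53 ± 0.21; the water channels Aqp1, 0.48 ± 0.15, and Aqp5, 0.77 ± 0.20; and the ligase Nedd4l, 0.88 ± 0.17. The adjusted p ran from 9.98e-06 for Atp1b1 to 0.0343 for Aqp1. With each array left out in turn Scnn1b lost this call in 8 of 12 cases and Aqp1 in 7 of 12, and Nedd4l lost it with the mean of its probe sets. After 2 days of O2 the response differed for Scnn1a, -1.15 ± 0.24, and Atp1b1, -0.88 ± 0.21. After 3 days it differed for Cftr, -1.67 ± 0.39. The air pups of P3 that enter both the P3 and the 2-day cases are the same mice, so these cases are not separate evidence. Groups of 3 were too small for the test of an outlying array.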

How the results depend on the processing

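Among the alternative values of single genes 5869 kept their direction and their side of the threshold, 289 lost their call and 117 gained one. Another 222 changed sign with no call on either side, and 4 turned their sign with a call on one side. With the mean of all probe sets Nedd4l changed by -0.0078 after 3 days of O2 in wild type, and by -0.16 over the mean of the 3 days. Without the arrays that carried other tissue the change of Cftr from P1 to P2 in knockout was 0.037, with 1 array left at P2, and with P3 left out the mean difference of Atp1b1 between genotypes in air was -0.083. The cause was not tested. With array weights the members called were 2 from P1 to P3 in knockout, 4 between genotypes in O2 and 2 for the difference between genotypes in the mean O2 response, while all genes called became 6381 for P4 against P1 in wild type (4083 before), 4530 between genotypes in O2 (2270) and 985 for the difference in response (217). Cyclic loess gave 2 members and 442 genes for that difference. Fits of only the arrays of a contrast called 4 members for P2 against P1 in wild type (8 before) and 1 for P3 against P1 in knockout, with fewer arrays to estimate the spread. Tissue scores as covariates gave 1 member for P3 against P1 in knockout, 3 for the difference in the mean response, and 3113 genes between genotypes in air (5271 before). Leaving out arrays with other tissue gave 1 member for P3 against P1 in knockout, 2388 genes for P4 against P1 in wild type and 2337 for 3 days of O2 in wild type (5010 before). It kept 1 array each of wild-type P1, P3 and O2 3 d and of knockout P2, assumed to vary like the other groups, and 0 arrays of wild-type P2, so comparisons that use that group have no such value. Without P3 the difference between genotypes in air gave 2 members and 3440 genes, and without P2 3457 genes; both were chosen after the data were seen, as was leaving out the 2-day groups, which gave 0 members and 1367 genes between genotypes in O2 and 126 genes for the difference in response. With each array left out in turn, members called ranged from 2 to 4 for 2 days of O2 in knockout, from 1 to 2 between genotypes in O2 and from 0 to 1 for the difference in the mean response (1 without wild-type P2 replicate 3), and genes called for that difference from 152 to 691 (691 without knockout P2 replicate 2). Same-numbered mice of different groups did not deviate together (mean r 0.0061 over 273 pairs, 77 above 0.1), so the numbers are names. A replicate block left the members called as they were in every comparison tested, such as 8 for P4 against P1 and 9 for 3 days of O2 in wild type.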
